A study of Mus musculus with 31 samples.

Results

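The comparison described here asks whether maternal isolation moved thalamic gene expression in opposite directions in male and female offspring. All 31 bulk RNA libraries of the study entered it, in 4 groups taken from their titles: 8 control males, 7 isolation males, 8 control females and 8 isolation females. The control groups are labelled CON and the isolation groups SIR, for social isolation rearing of the mother. Every library came from thalamus of adult mouse offspring at postnatal day 90, and all 4 groups share that tissue and age. The labels name no strain, no litter and no pairing between animals. Every p-value here therefore sets a group difference against the spread between libraries. Offspring of 1 mother may stand among these libraries and are counted as independent. For each autosomal gene the isolation effect was the log2 ratio of isolation to control within 1 sex. The difference tested was the male effect minus the female effect, called the interaction below. It is positive where isolation raised a gene more in males than in females.

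The thalamus relays sensory and motor signals to the cortex through excitatory relay neurons, whose nuclei keep expressing part of the transcription factor set that patterned them in the embryo. Its white matter tracts are wrapped by oligodendrocytes, which make myelin from a small set of very abundant proteins and from lipids, cholesterol among them. Myelination and synapse maturation are still under way in early life, and steroid hormones organise brain differences between the sexes over the same period.

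Before the results, 1 library went against its label. The library labelled SIR_F_5 held the Y-linked RNA helicase gene Ddx3y at 41.6 CPM (counts scaled to a common library total), against 31.5 to 50.2 CPM in the 15 male libraries and 0 to 0.0481 CPM in the other 15 female libraries. The Y-linked genes Eif2s3y, Uty and Kdm5d were likewise at male levels in it, and the X-linked Eif2s3x was at 148 CPM against 144 to 170 CPM in males and 212 to 260 CPM in the other females. It stays in the group its label gives, and results are repeated without it. Thalamic identity was present in every library: the vesicular glutamate transporter Slc17a6 ranged from 156 to 282 TPM (abundance scaled for transcript length and depth) and the thalamic transcription factor Tcf7l2 from 188 to 351 TPM. Depth ranged from about 13004000 to 25742000 estimated counts per library with a median of 23282000. Markers of neighbouring tissue differed between libraries: the choroid plexus product Ttr ranged from 2.69 to 1560 CPM in control females and from 0.526 to 3.76 CPM in isolation males. The library numbers of the isolation groups (320 to 432) and the control groups (554 to 746) do not overlap, so housing cannot be told apart from anything that followed those numbers. Males and females interleave only in part within each housing. The isolation libraries end in females 9 to 12 followed by males 13 to 15, and the control libraries end in females 29 to 31.

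Isolation effects differed between the sexes at a small share of autosomal genes. Of 14354 autosomal genes tested, 410 passed for the interaction (edgeR quasi-likelihood test, Benjamini-Hochberg adjusted p under 0.05), which is 2.86% of them. At 157 genes (1.09%) the male effect lay above the female effect, and at 253 genes (1.76%) it lay below. The estimates had opposite signs in the sexes at 402 of the 410 genes, and the same sign at 8. Choosing genes by the difference of the 2 effects largely fixes this count, so it is a description; over all autosomal genes 44.8% had opposite signs. The median absolute interaction was 0.51 on the log2 scale among the 157 and 0.50 among the 253, and 70 genes exceeded 1. The 157 genes had a median effect of 0.23 in males and -0.27 in females, and the 253 genes had -0.21 in males and 0.29 in females. Without the library labelled SIR_F_5 the count was 452 (3.15%; 167 above, 1.17%, and 285 below, 1.99%), of which 395 were among the 410. Upper quartile scaling gave 214 genes above and 220 below, a more even split. Leaving out 1 library moved the count to between 276 (without control male 22) and 516 (without control male 23). Without the 8 libraries whose library numbers lie apart from the others the count was 371, and 241 of the 410 genes were called again.

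**Figure D1:**
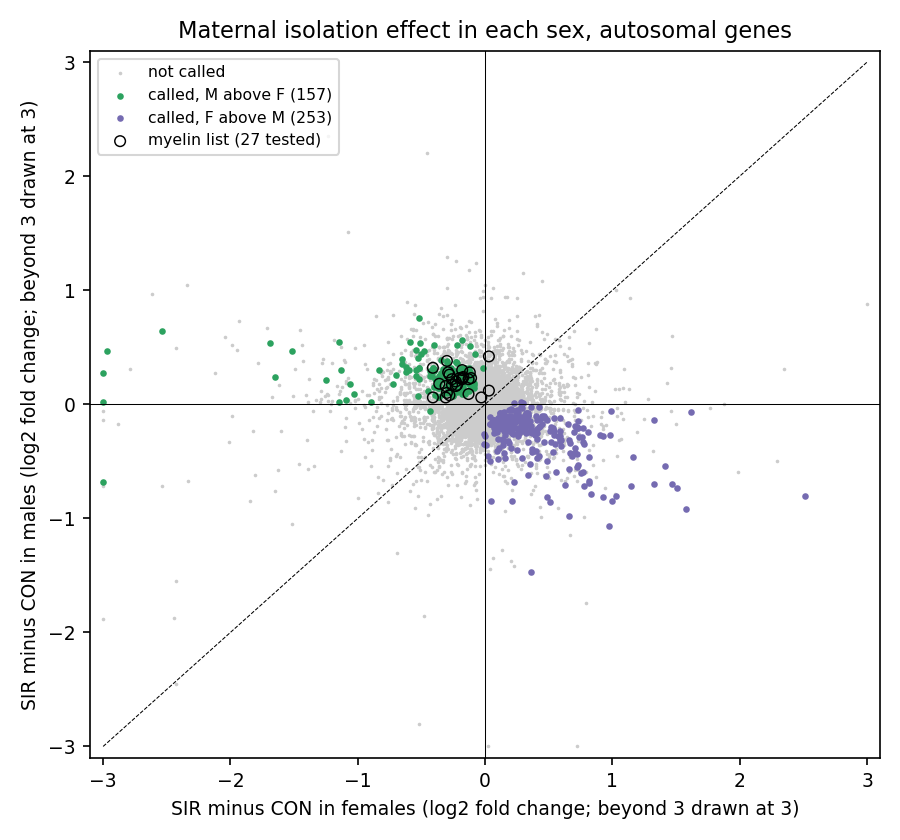
Each point is an autosomal gene; the horizontal axis is the isolation effect in females and the vertical axis that in males, both as log2 fold change of SIR over CON, with values beyond 3 drawn at 3. The 157 called genes with the male effect above the female effect (green) and the 253 with it below (purple) lie mostly in the upper left and lower right of the plot, and 25 of the 27 myelin genes (black rings) lie in the upper left.

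Passing the interaction does not require passing within each sex. Among the 410 genes, 11 also passed in males and in females separately, 47 passed in males alone, 231 in females alone and 121 in neither. Within sexes, 184 autosomal genes passed in males (1.28%; 42 rose, 0.293%, and 142 fell, 0.989%) and 667 in females (4.65%; 343 rose, 2.39%, and 324 fell, 2.26%). The male count was unsteady: it was 0 without control male 22 (2103 genes at an unadjusted p under 0.05) and 479 without control male 27. It was also below 100 without any 1 of isolation males 1 (46), 6 (22) and 15 (14) or control males 19 (88), 21 (34) and 25 (24), and above 270 without isolation male 14 (277), control males 23 (278) or 28 (297), or control female 31 (305). It was also 0 with a transcript length trend removed from each library (1780 genes at an unadjusted p under 0.05), while DESeq2 called 593 on all libraries. The female count fell to 349 or 371 when isolation female 3 or 7 was left out, to 357 or 417 when control female 29 or 31 was left out, and to 106 with 2 components of region-marker genes in the fit. Across genes the rank correlation of the effect with transcript length was -0.338 for the male effect, -0.194 for the female effect and -0.102 for their difference, and 351 of the 410 genes were called again after the length trend was removed.

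The same counts can be read between the sexes within each housing, from the same fit and libraries, as a description. Of the 157 genes, 121 differed between males and females among controls and 20 among isolation offspring, with a median male minus female difference of -0.36 in controls and 0.14 under isolation. Of the 253 genes, 83 differed between the sexes among controls and 146 among isolation offspring, with medians of 0.20 and -0.29. Over all autosomal genes, 7.36% differed between the sexes among controls (3.02% higher in males, 4.34% lower) and 3.22% among isolation offspring (0.725% higher in males, 2.49% lower).

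In 11 genes a rise in 1 sex and a fall in the other each passed the threshold. By edgeR the count was unsteady: it was 0 without control male 22 or with the length trend removed. It was 1 to 4 without control male 25 or 21 or isolation male 15, 6 or 1. Leaving out control male 27, control male 23 or control female 20 gave 31, 29 and 17. With region-marker components it was 2, in a fit where 610 genes passed in males and 106 in females. DESeq2 gave 36 and limma-voom 38. In isolation males 5 rose that fell in isolation females: Cd82, Fam234a, Prr18, S1pr5 and Mbp. The other 6 fell in males and rose in females, Ndst1, Fhod3, Necab1, Sh2d4b and Tox3 among them.

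Cd82, a tetraspanin of the cell surface, ranged in control males from 20.9 through a median of 26.4 to 29.4 CPM, and in isolation males from 28.7 through 33.9 to 37.1 CPM. In control females it ranged from 30.4 through 38.3 to 45.3 CPM, and in isolation females from 25.2 through 30.4 to 35.3 CPM. All 7 isolation males lay above the control male median and all 8 isolation females below the control female median. The ranges overlapped slightly in males and from 30.4 to 35.3 CPM in females. The effect was 0.36 ± 0.07 (SE) in males and -0.30 ± 0.07 in females, and the interaction was 0.66 ± 0.10 (adjusted p = 0.000773). Fam234a had an interaction of 0.48 ± 0.07 (adjusted p = 0.000773), and its isolation females (26.1 to 31.5 CPM) reached just up to the controls (31.5 to 36.5 CPM). Its call was lost on log2(TPM + 1) values (adjusted p = 0.16).

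S1pr5, the sphingosine-1-phosphate receptor typical of oligodendrocytes, had medians of 24.3 CPM in control males, 30.6 in isolation males, 33.0 in control females and 25.9 in isolation females. Its interaction was 0.74 ± 0.12 (adjusted p = 0.000987). Prr18 had an interaction of 0.59 ± 0.10 (adjusted p = 0.000904), with an effect of 0.32 in males and -0.27 in females. Mbp encodes myelin basic protein, which compacts the myelin sheath. It ranged from 3450 through 3800 to 4980 CPM in control males, from 4190 through 4820 to 5150 in isolation males, from 4640 through 5360 to 5950 in control females and from 3600 through 4290 to 4980 in isolation females. Control males were the lowest group by median and control females the highest, with overlap within each sex. The Mbp interaction was 0.57 ± 0.10 (adjusted p = 0.00134).

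In the opposite direction, Ndst1, an enzyme that adds sulfate to heparan sulfate chains, had the smallest p of the genes with a symbol that rose in females and fell in males. It ranged from 164 through 184 to 202 CPM in control males and from 155 through 163 to 170 in isolation males. In control females it ranged from 152 through 159 to 173 CPM and in isolation females from 178 through 189 to 194, so the female groups did not overlap. Its interaction was -0.38 ± 0.05 (adjusted p = 0.000552). Fhod3, a formin that organises actin filaments, ranged from 57.1 to 72.5 CPM in control males and from 46.1 to 56.5 in isolation males, with no overlap, and had an interaction of -0.51 ± 0.08 (adjusted p = 0.000552).

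Necab1, a neuronal calcium-binding protein, was at levels above 80 CPM in every library. Its medians were 182 CPM in control males, 104 in isolation males, 135 in control females and 248 in isolation females. The female groups did not overlap (81.6 to 165 against 167 to 296 CPM), and the library labelled SIR_F_5 was the lowest of the isolation females. The interaction was -1.63 ± 0.26 (adjusted p = 0.000904). The HMG-box gene Tox3 had -0.76 ± 0.13 (adjusted p = 0.00123). Sh2d4b had -1.64 ± 0.27 (adjusted p = 0.000904) at a low level, with group medians between 0.912 and 1.64 CPM.

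**Figure D2:**
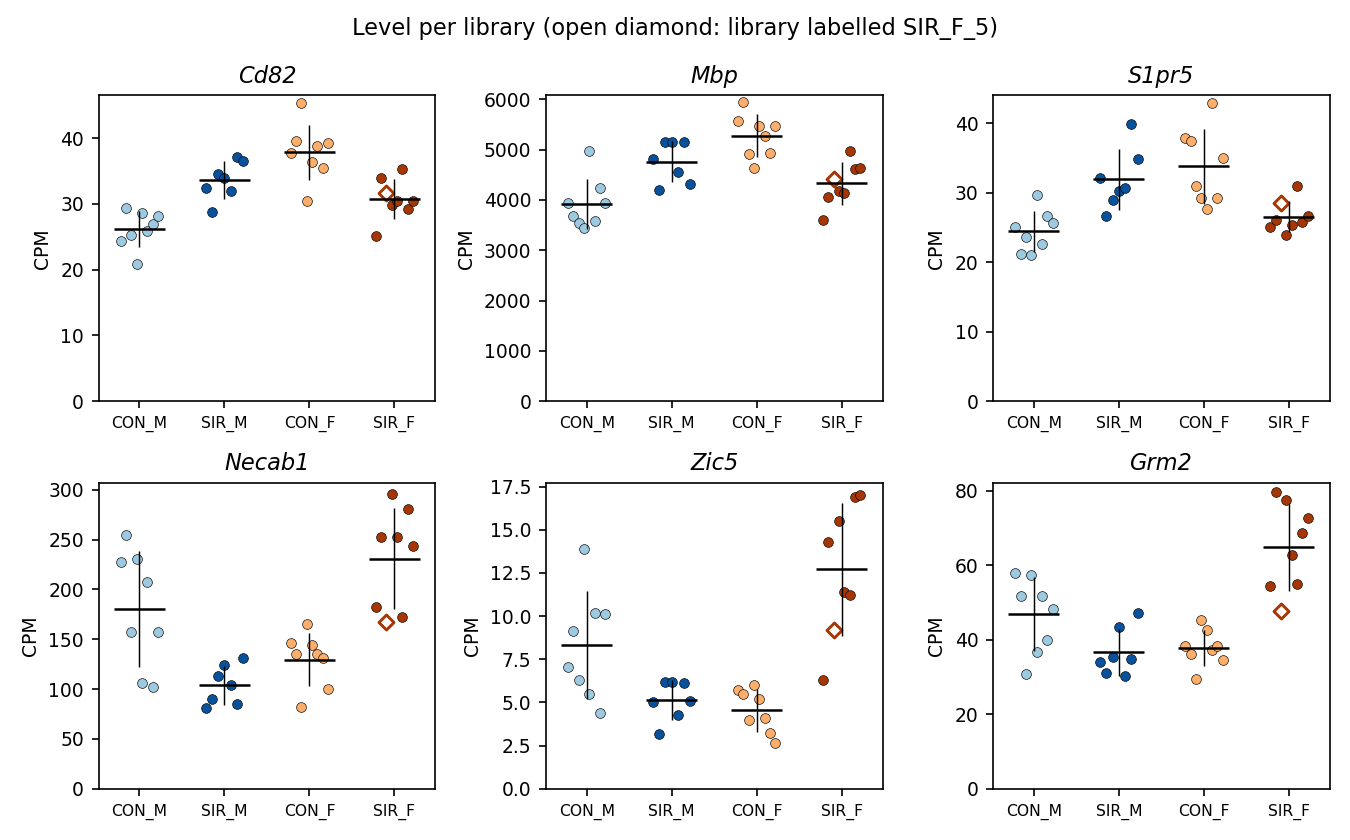
Level in CPM of 6 genes in every library by group, with the group mean (horizontal line) and SD (vertical line); the open diamond is the library labelled SIR_F_5. Group means of Cd82, Mbp and S1pr5 step up from control to isolation males and down from control to isolation females. Those of Necab1, Zic5 and Grm2 do the reverse, but Zic5 and Grm2 did not pass in males (edgeR adjusted p = 0.097 and 0.141).

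For Cd82 and Zic5 the 250 bases before the first listed transcription start are shown, as the members with the smallest p in their direction that have an entry in the RefSeq promoter table (GRCm38.p6) and may be printed. Both lie on the minus strand, Cd82 at chr2:93462951-93463200 and Zic5 at chr14:122465659-122465908. Capitals mark matches to AGGTCA, a half-site of estrogen and other nuclear receptors, or AGAACA, a half-site of androgen and glucocorticoid receptors, searched on both strands (TGACCT and TGTTCT in reverse).
Cd82: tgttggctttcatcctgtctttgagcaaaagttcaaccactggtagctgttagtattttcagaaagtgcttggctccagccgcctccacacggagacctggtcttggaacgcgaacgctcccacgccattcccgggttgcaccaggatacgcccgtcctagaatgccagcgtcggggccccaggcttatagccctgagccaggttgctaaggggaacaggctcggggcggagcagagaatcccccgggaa
Zic5: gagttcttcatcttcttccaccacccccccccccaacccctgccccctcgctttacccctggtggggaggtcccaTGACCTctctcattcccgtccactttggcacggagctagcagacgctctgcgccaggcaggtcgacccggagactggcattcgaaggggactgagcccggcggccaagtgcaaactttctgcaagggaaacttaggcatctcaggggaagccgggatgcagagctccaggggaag
The Zic5 window held 1 match, to AGGTCA on the reverse strand, and the Cd82 window held none. Among called genes with an entry, AGGTCA or its reverse stood in 9.02% of 122 windows of the 157-gene direction and 6.67% of 180 windows of the 253-gene direction, against 10.5% of 10954 windows of tested genes and 13.9% of 25748 autosomal windows. AGAACA or its reverse stood in 8.20% and 12.2%, against 10.5% and 16.1%. A match describes letters in the window and does not show binding.

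Myelin genes held more calls than any other list. Of 28 listed myelin and mature oligodendrocyte genes, 27 were tested and 19 passed (70.4%, against 1.09% of all genes in that direction), all 19 with the male effect above the female effect. All 27 interaction estimates were positive, with a median of 0.41, against 0.005 over all autosomal genes. Within sexes, 3 of the 27 rose in males (median effect 0.22) and 11 fell in females (median effect -0.23). Among control offspring 23 of the 27 were lower in males than in females (median difference -0.38). Among isolation offspring edgeR called 0 of 27, with a median difference of 0.04 and 1 gene at an unadjusted p under 0.05.

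The structural proteins of the sheath moved with Mbp. Mobp, an abundant protein of central myelin, had an interaction of 0.54 ± 0.11 (adjusted p = 0.00547). The adhesion protein Mag (0.41 ± 0.09), the surface glycoprotein Mog (0.43 ± 0.10), the tight junction protein Cldn11 (0.39 ± 0.10) and Mal (0.40 ± 0.11) also passed. Cnp, a nucleotide phosphodiesterase of non-compact myelin, had medians of 497 CPM in control males, 601 in isolation males, 617 in control females and 566 in isolation females. Its groups overlapped within each sex, and its interaction was 0.40 ± 0.08 (adjusted p = 0.00466).

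Genes that run the myelinating cell gave like values. Myrf, the transcription factor that drives myelin genes, had 0.47 ± 0.10, and Tmem98, a membrane protein that binds Myrf, had 0.61 ± 0.11 (adjusted p = 0.00153). The gap junction gene Gjc3 (0.48 ± 0.13) and the lipid enzymes Fa2h (0.43 ± 0.11) and Gal3st1 (0.48 ± 0.11) passed. Trf, the iron carrier transferrin, had 0.54 ± 0.10 (adjusted p = 0.00233), with medians of 595 and 729 CPM in control and isolation males and 860 and 707 CPM in control and isolation females. Among the 8 members that did not pass were Ermn (0.47, adjusted p = 0.0583), Ugt8a (0.37) and Aspa (0.34).

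Summed over the list, myelin transcripts ranged from 8290 through 9150 to 11600 CPM in control males, from 9530 through 11000 to 12100 in isolation males, from 11300 through 12900 to 13600 in control females and from 8690 through 10400 to 11800 in isolation females. The 2 control groups overlapped only between 11300 and 11600 CPM, and the 2 isolation groups overlapped almost wholly. In bulk tissue, fewer oligodendrocytes and less RNA per oligodendrocyte cannot be told apart. The count was 19 without the library labelled SIR_F_5, 15 with 2 region-marker components in the fit, 11 on log2(TPM + 1) values and 15 to 21 over single libraries left out.

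Listed progenitor and early lineage genes were called less fully. Of 17 progenitor and early lineage genes tested, 3 passed (17.6%, against 1.09% of all genes in that direction). They were Bcas1, which marks newly myelinating cells (0.61 ± 0.11, adjusted p = 0.00212), and the lineage transcription factors Sox10 (0.46 ± 0.10, adjusted p = 0.00878) and Olig1 (0.34 ± 0.09, adjusted p = 0.0315). Olig1 differed through males, with an effect of 0.32 in males and -0.02 in females. Over the list, estimates were positive in 11 of 17 members, with a median of 0.20. The difference between this share and that of the mature genes was not tested. Other genes leading this direction were Apod, a lipid-binding lipoprotein component (0.72 ± 0.13, adjusted p = 0.00134), the organic anion transporter Slco3a1 (0.57 ± 0.10, adjusted p = 0.00141), Cdr2 (0.51 ± 0.10, adjusted p = 0.00296) and Spg20, which encodes spartin (0.33 ± 0.06, adjusted p = 0.00296). Isolation and control females did not overlap for Slco3a1, Cdr2 or Spg20.

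Genes of vessel walls and meninges leaned the same way, with 1 strong exception. Of 26 tested, 6 passed with the male effect above (23.1%, against 1.09% of all genes) and 1 with it below (against 1.76%). Estimates were positive at 24 (median 0.54). Acta2, smooth muscle actin, had medians of 12.8 and 16.4 CPM in control and isolation males and 15.1 and 10.2 CPM in control and isolation females, with overlap in each sex and an interaction of 0.95 ± 0.19 (adjusted p = 0.00505). Col3a1, a fibrillar collagen, had 1.13 ± 0.25 (adjusted p = 0.00888). Fbln1, an extracellular matrix fibulin, went the other way: it ranged from 9.83 to 18 CPM in control females and from 20 to 35.1 CPM in isolation females, with no overlap, and its interaction was -1.25 ± 0.20 (adjusted p = 0.000904). The count of 6 fell to 2 with 2 region-marker components in the fit and ranged from 3 (without isolation male 15) to 8 over single libraries left out.

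Markers of tissue beside the thalamus gave steep estimates at low levels. Of 16 midbrain and monoamine markers tested, 3 passed (18.8%, against 1.09% of all genes in that direction), and over single libraries left out the count ranged from 1 to 5 (without control male 27). It was 1 without any 1 of isolation females 3, 7, 10 and 12, isolation male 4, control males 19, 21, 22, 25 and 28 and control females 26, 29 and 31. Among the 3 were the transcription factor gene Foxa1 (3.45 ± 0.94, adjusted p = 0.039) and the nicotinic receptor subunit Chrna6 (3.18 ± 0.86, adjusted p = 0.0388), which lost their calls in 22 and 24 of 46 alternative fits. All 16 estimates were positive, with a median of 1.32, made up of 0.09 in males and -1.25 in females, where 6 genes fell. Foxa1 ranged from 0.233 through 0.802 to 5.04 CPM in control females and from 0 through 0.217 to 0.484 CPM in isolation females, with overlap. The dopamine transporter Slc6a3 reached 43.1 CPM in 1 control female and stayed at or below 2.01 CPM in the other 3 groups. The serotonin transporter Slc6a4 was at 0 in 17 of the 31 libraries. Summed over the list, control females ranged from 255 to 399 CPM and isolation females from 201 to 280 CPM. By limma-voom none of the 16 passed (9 at an unadjusted p under 0.05 in the edgeR fit, 5 called by DESeq2). None passed with 2 region-marker components in the fit either. Those components were built from markers of neighbouring tissue, these midbrain genes among them, so that outcome was largely fixed beforehand. The part of such tissue in the other results was not tested beyond that fit, in which 223 of the 410 genes were called again and all 410 kept their sign.

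Choroid plexus markers had a median interaction of 0.91 over 14 tested members, with 0 called by edgeR (3 at an unadjusted p under 0.05, 0 called by DESeq2, 1 by limma-voom). The hypothalamic list had 1 of 20 called, against 1.09% of all genes in that direction. It was Lmx1b (3.68 ± 1.02, adjusted p = 0.0434), which missed the threshold without the library labelled SIR_F_5 (adjusted p = 0.0605). Hypothalamic neuropeptide markers varied widely between libraries. Oxt medians were 102 CPM in control males, 59.4 in isolation males, 3.49 in control females and 145 in isolation females, with overlap in each sex. Avp medians were likewise lower in isolation males and higher in isolation females than in controls. Hcrt and Pmch medians went the other way in each sex. In the striatal list 1 gene passed in each direction of 13 tested, against 1.09% of all genes above and 1.76% below. The phosphodiesterase Pde10a had -0.28 ± 0.08 (adjusted p = 0.0388), a call lost in 24 of 47 alternative fits.

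In the direction where the female effect lay above the male effect, 6 of 26 thalamic relay genes tested passed (23.1%, against 1.76% of all genes in that direction), and 0 passed in the other (1 at an unadjusted p under 0.05, 0 called by DESeq2 or limma-voom). The 6 were Lhx9, Necab1, Lhx2, Gbx2, Calb2 and Slitrk6. All of these but Slitrk6 also rose in females, and Necab1 also fell in males. The list as a whole did not lean far, with 16 negative and 10 positive estimates and a median of -0.13.

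Lhx9, a LIM homeodomain factor of early thalamic neurons, ranged from 19.5 through 27.6 to 32.0 CPM in control males and from 14.6 through 20.6 to 23.4 in isolation males. In females it ranged from 16.3 through 20.1 to 24.6 CPM in controls and from 27.7 through 31.3 to 43.1 under isolation, with no overlap. The effect was -0.43 ± 0.13 in males (adjusted p = 0.0725) and 0.71 ± 0.12 in females (adjusted p = 0.00117), and the interaction was -1.14 ± 0.18 (adjusted p = 0.000773). Lhx2, its close relative, had -1.10 ± 0.19 (adjusted p = 0.00123), and Gbx2, a homeobox gene needed for thalamic neurons to mature, had -0.95 ± 0.20 (adjusted p = 0.00725). The calcium-binding protein Calb2, which marks midline and intralaminar thalamic neurons, had -0.89 ± 0.20 (adjusted p = 0.0099). By contrast, the general relay genes Slc17a6 (-0.38, adjusted p = 0.108), Tcf7l2 (-0.29, adjusted p = 0.372), Prkcd (0.18, adjusted p = 0.762) and Rora (-0.18, adjusted p = 0.743) did not pass.

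The Zic zinc-finger genes, which act in patterning of the dorsal midline and of thalamic nuclei, gave 3 called of 4 tested. In that direction 1.76% of all genes were called. Zic5 ranged from 4.39 through 8.10 to 13.9 CPM in control males, from 3.17 through 5.11 to 6.18 in isolation males, from 2.64 through 4.66 to 6 in control females and from 6.29 through 12.9 to 17 in isolation females. Isolation females lay above every control female, while the male groups overlapped. Its interaction was -2.17 ± 0.31 (adjusted p = 0.000552). Zic2, its neighbour on chromosome 14, had -0.81 ± 0.15 (adjusted p = 0.00326), and Zic4 on chromosome 9 had -1.05 ± 0.23 (adjusted p = 0.00817). Zic1, the neighbour of Zic4 and the family member with the highest TPM, had -0.46 ± 0.18 (adjusted p = 0.201). The 3 called Zic genes rose in females, and over the 4 genes the median effect was 0.70 in females and -0.23 in males. Within males Zic5 (adjusted p = 0.097), Zic2 (adjusted p = 0.463) and Zic4 (adjusted p = 0.359) did not pass. Zic genes that lie side by side may share reads where their transcripts overlap, and the sources used here do not state whether strand was used in the counting.

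Tox, an HMG-box transcription regulator, ranged from 34.7 to 51.7 CPM in control males, from 25 to 38.1 in isolation males, from 24.2 to 35.1 in control females and from 36.1 to 51.9 in isolation females. The female groups did not overlap, and the interaction was -0.91 ± 0.13 (adjusted p = 0.000552). Id4, an inhibitor of basic helix-loop-helix factors listed with astrocyte genes, had -0.82 ± 0.15 (adjusted p = 0.00224), while the glial calcium-binding protein S100b, from the same list, had 0.41 ± 0.08 (adjusted p = 0.00463). The magnesium transporter family member Slc41a3 (-0.94 ± 0.15), the endocytic adaptor subunit Ap2a2 (-0.38 ± 0.06) and the synapse-related gene Syndig1l (-0.87 ± 0.14) completed the leading genes of this direction.

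Glutamate receptor genes passed in this direction at 5 of 32 tested (15.6%, against 1.76% of all genes). In the other direction 0 passed (1 at an unadjusted p under 0.05, 0 called by DESeq2 or limma-voom). Grm2, a presynaptic metabotropic receptor, had medians of 50 CPM in control males, 34.9 in isolation males, 37.9 in control females and 65.6 in isolation females. The female groups did not overlap (29.6 to 45.4 against 47.7 to 79.6 CPM), and the lowest isolation female was the library labelled SIR_F_5. Its interaction was -1.13 ± 0.18 (adjusted p = 0.000904). The NMDA receptor subunit Grin2d had -0.61 ± 0.10 (adjusted p = 0.000886), again with female groups apart (46.8 to 59.1 against 64.8 to 90.5 CPM). The AMPA receptor auxiliary subunits Cacng3 (-0.97 ± 0.18, adjusted p = 0.00187) and Shisa9 (-0.44, adjusted p = 0.0077) and the NMDA subunit Grin3a (-0.45, adjusted p = 0.0281) also passed. The main NMDA subunit Grin1 (0.00) and the AMPA subunits Gria1 (-0.15) and Gria2 (-0.12) did not, and the median of the 32 was -0.11. Grm2, Grin2d and Cacng3 each rose in females (adjusted p = 0.000706). Within males Grm2 (adjusted p = 0.141), Grin2d (adjusted p = 0.133) and Cacng3 (adjusted p = 0.413) did not pass.

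Of 28 synaptic vesicle genes, 3 passed with the female effect above (10.7%, against 1.76% of all genes) and 1, Vamp1, with the male effect above (3.57%, against 1.09%). Over single libraries left out these counts ranged from 2 to 5 (5 without isolation female 5 or 10 or control female 24) and from 0 to 3. The count of 1 was 0 without any 1 of 18 libraries and 3 without control male 23 or 27. The vesicle phosphoprotein Syn2 had -0.59 ± 0.12 (adjusted p = 0.00584) and the Rab effector Rph3a -0.43 ± 0.09 (adjusted p = 0.00584). Pclo, a scaffold of the active zone, differed through males: control males ranged from 238 to 313 CPM and isolation males from 180 to 229 CPM without overlap, against an effect of 0.01 in females, and the interaction was -0.37 ± 0.10 (adjusted p = 0.0315). The mu opioid receptor Oprm1 had the same form, with 6.75 to 11.1 CPM in control males, 2.03 to 6.04 CPM in isolation males, an effect of 0.05 in females and an interaction of -0.90 ± 0.22 (adjusted p = 0.0207). The sodium channel Scn2a fell in males by 0.38 and had an interaction of -0.49 ± 0.12 (adjusted p = 0.0244).

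Cholesterol synthesis genes ran against the myelin genes. Of 24 tested, 5 passed (20.8%, against 1.76% of all genes in that direction), all with the female effect above. Of the 24 estimates, 22 were negative (median -0.25). Hmgcs1, which makes the precursor of mevalonate, had medians of 223 CPM in control males, 196 in isolation males, 201 in control females and 238 in isolation females, with overlap in each sex and an interaction of -0.37 ± 0.08 (adjusted p = 0.00888). The sterol demethylase gene Cyp51 had -0.25 ± 0.06 (adjusted p = 0.0259), Hsd17b7 -0.55 ± 0.15 (adjusted p = 0.0326) and Sqle -0.40 (adjusted p = 0.0487). The median effect over the 24 was -0.07 in males and 0.16 in females, where 5 genes rose. The count ranged from 2 (without control male 22 or 25) to 7 over single libraries left out.

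**Figure D3:**
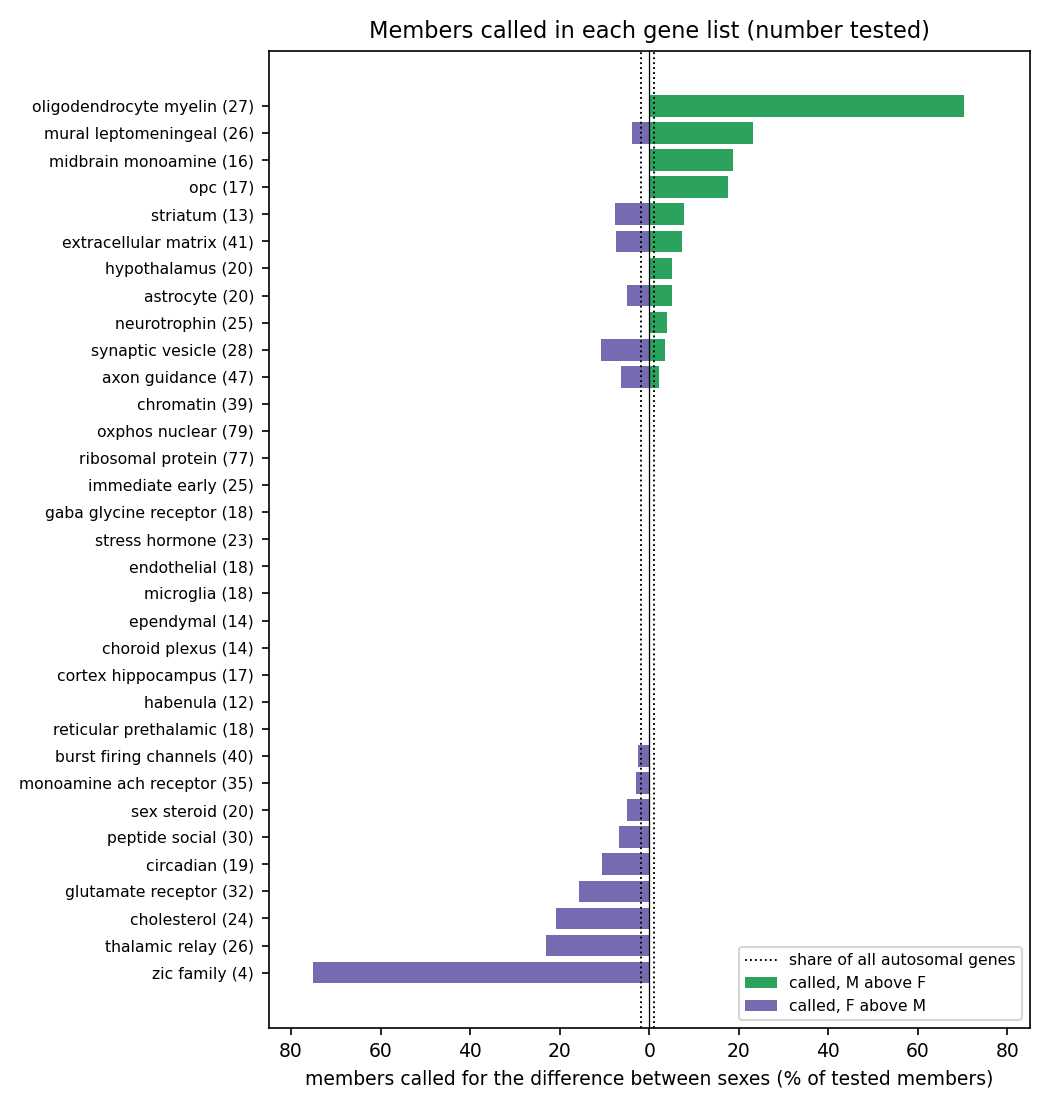
Bars give the percentage of tested members of each gene list that were called for the interaction, to the right with the male effect above the female effect and to the left with it below; dotted lines mark 1.09% and 1.76%, the shares over all autosomal genes. Myelin genes reach 70.4% to the right, and Zic (75.0% of 4), relay and cholesterol genes stand out to the left.

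Among matrix genes 3 passed in each direction of 41 tested (7.32%, against 1.09% of all genes above and 1.76% below), and 1 in each did with region-marker components in the fit. The count above ranged from 1 (without control male 21 or 22 or control female 26) to 5 (without isolation male 1, isolation female 5, control males 16, 23 or 27, or control female 20). They included Hapln2, a link protein of the node of Ranvier, above (0.54 ± 0.13, adjusted p = 0.0153) and the protease inhibitor Timp3 (-0.32 ± 0.07, adjusted p = 0.00944) and Fbln5 (-0.56 ± 0.14, adjusted p = 0.0237) below. Axon guidance genes had 1 above and 3 below of 47, against 1.09% and 1.76% of all genes. The 1 above was the netrin receptor Unc5b (0.45 ± 0.11, adjusted p = 0.0153). Below were the semaphorin receptors Plxnc1 (-0.58 ± 0.12, adjusted p = 0.00692) and Plxnd1 (-0.41 ± 0.10, adjusted p = 0.023) among others. The 3 became 2 to 5 over single libraries left out (5 without isolation male 14). Of 19 clock genes, Nr1d2 (-0.40 ± 0.09, adjusted p = 0.0119) and Cry2 (-0.28 ± 0.07, adjusted p = 0.0194) passed. In the neurotrophin list 1 of 25 passed, the neuropeptide precursor Vgf (0.69 ± 0.16, adjusted p = 0.0153). Among monoamine and acetylcholine receptors 1 of 35 passed, the serotonin receptor Htr7 (-0.34 ± 0.08, adjusted p = 0.0165), a share equal to the 2.86% over all genes. Among neuropeptide and social signalling genes 2 of 30 passed (6.67%), Oprm1 and the galanin receptor Galr1 (-1.62 ± 0.42, adjusted p = 0.0258), and 1 passed without control male 25. Over all genes 1.09% passed above and 1.76% below. The clock share (2 of 19) and the social signalling share lay above these values. With only 1 or 2 calls each, the clock, neurotrophin, monoamine receptor and social signalling lists are not read as lists. Their calls describe the genes named.

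In 13 of the 33 lists edgeR called no member: over their 371 genes, 42 had an unadjusted p under 0.05, DESeq2 called 4 and limma-voom 11. They include microglial, endothelial, stress hormone, inhibitory receptor, immediate early, chromatin and ribosomal protein genes. The glucocorticoid receptor Nr3c1 had an interaction of -0.25 ± 0.09 (adjusted p = 0.154) and the corticotropin-releasing hormone receptor Crhr1 0.52 ± 0.17 (adjusted p = 0.102). The 77 ribosomal protein genes had a median effect of 0.12 in males and 0.11 in females, and a median interaction of 0.02.

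Each list can also be read as 1 level per library, the mean of its tested members on a centred log2 CPM scale. The myelin level had medians of -0.18 in control males, 0.05 in isolation males, 0.23 in control females and 0.00 in isolation females. Every control female (0.06 to 0.29) lay above every control male (-0.44 to 0.04), while the isolation groups overlapped. The Zic level had medians of 0.20, -0.14, -0.24 and 0.48 in the same order of groups, and 7 of the 8 isolation females lay above every control female. The cholesterol level had medians of 0.05, -0.04, -0.06 and 0.05. The relay level had medians of 0.07, -0.25, -0.03 and 0.08. Isolation males 1, 4, 6 and 13 had relay levels of -0.35 to -0.25 and hypothalamic marker levels of 1.13 to 1.82, and isolation males 8, 14 and 15 had relay levels of 0.09 to 0.19 and hypothalamic levels of -2.48 to -0.32. With 2 region-marker components in the fit 9 relay genes were called, against 6 without.

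**Figure D4:**
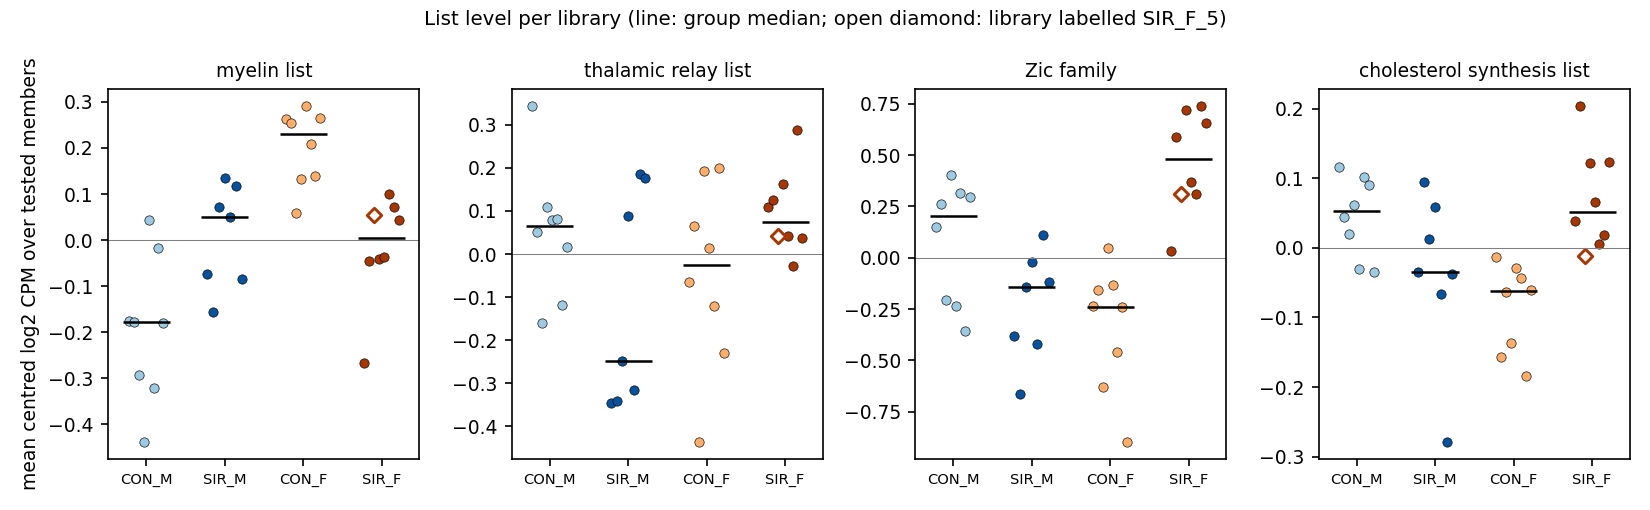
List level in each library by group, as the mean centred log2 CPM of tested members; lines are group medians and the open diamond is the library labelled SIR_F_5. The myelin level separates control males (-0.44 to 0.04) from control females (0.06 to 0.29), and the Zic level is highest in isolation females.

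The male and female effects come from different libraries, so genes chosen in 1 sex can be looked up in the other. Of the 667 genes that passed in females, 377 (56.5%) had the opposite sign in males, against 44.8% of all autosomal genes. At an unadjusted p under 0.05 in males, 123 of them (18.4%) were opposite and 56 (8.40%) had the same sign, against 6.85% and 10.7% of all genes. Without the library labelled SIR_F_5 the counts were 114 opposite and 28 same among 532 genes, and with the length trend removed the 667 genes gave 105 opposite and 28 same. Starting from the 184 genes that passed in males gave another picture: 73 (39.7%) were opposite in females, and at an unadjusted p under 0.05 in females 25 (13.6%) were opposite and 33 (17.9%) the same, against 9.13% and 10.9% of all genes. Without the library labelled SIR_F_5 those counts turned to 31 opposite and 23 same among 205 genes, and with the length trend removed the 184 genes gave 37 opposite and 12 same. Across all 14354 genes the effects of the sexes had a Pearson correlation of -0.046 and a Spearman correlation of 0.044. Genes are not independent replicates, and these values carry no test.

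Each library was also set against genes called without it. For every library, the interaction was refitted on the other 30, and the percentage of called genes at which it lay nearer the median of its own group than that of the other sex in the same housing was counted. It was above 50% in 27 of 31 libraries. The same percentage over all genes is not given here. The comparison is between the sexes within a housing and does not set isolation against control. The group medians were 70.7% in control males, 67.4% in isolation males, 70.3% in control females and 75.3% in isolation females. All 7 isolation males (59.6% to 69.2%) and all 8 control females (56.8% to 79.4%) were above 50%. The exceptions were control males 23 (30.6%) and 27 (36.1%), isolation female 10 (45.9%) and the library labelled SIR_F_5 (45.4%, 205 of 452 genes).

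**Figure D5:**
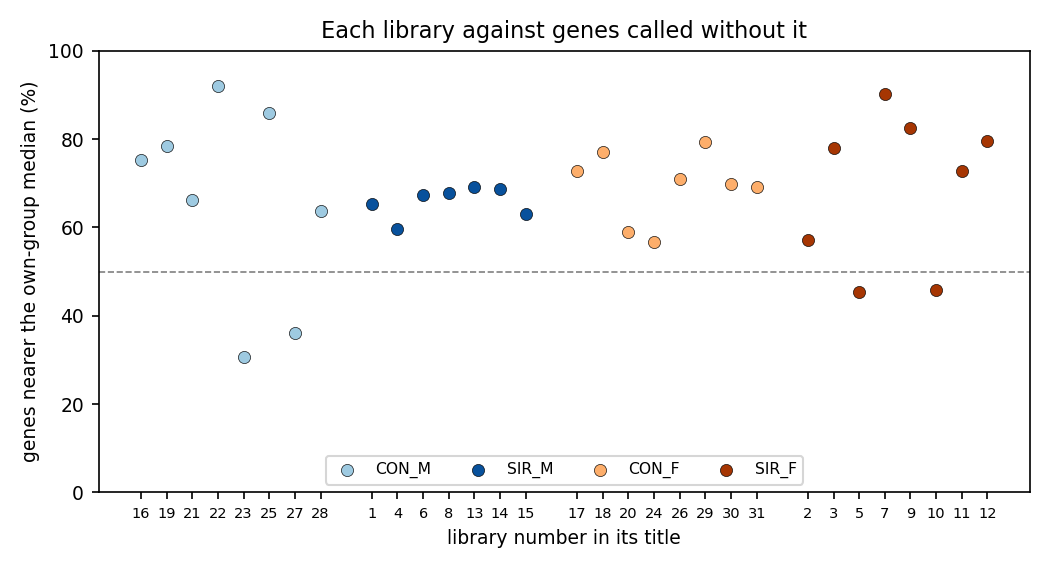
For each library, by the number in its title, the percentage of genes called without it at which it lay nearer its own group's median than that of the other sex under the same housing; the dashed line is 50%. Of the 31 libraries 27 lie above the line, and the 4 below are control males 23 and 27, isolation female 10 and the library labelled SIR_F_5.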

How the data were processed

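Polyadenylated RNA of 31 thalamus samples was extracted with an AllPrep DNA/RNA kit and made into stranded libraries, per the labels' protocols. FastQC, kallisto and the build GRCm39 are named in the submitters' processing notes; their versions and the strand setting are not stated there. The deposited files hold the authors' estimated counts, TPM and effective lengths for 105878 transcripts. Identifiers of 104949 (99.12%) matched GENCODE M21, used for gene names and chromosomes only; the other 929 held 0.69 to 0.76% of counts and were left out. Counts of a gene's transcripts were added up and rounded. Genes kept by filterByExpr were scaled by TMM and fitted with edgeR 4.0.16 (R 4.3.3; robust quasi-likelihood, 1 mean per group); p-values were adjusted over all 14886 genes tested and 14354 autosomal genes are reported. CPM use TMM-scaled totals. SE is the log2 value divided by the square root of its F. All 105 pairs within groups differed beyond sampling noise. The script was tested on simulated data.

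The contrast, members and gene lists were chosen with earlier results of these data known; a list's count is a description, not independent evidence. Named genes were the 12 per direction with the smallest p among those called with and without the library labelled SIR_F_5, up to 10 called in both sexes, and up to 3 called members of each list; clone-like names were passed over and some genes are not reported here. Mbp, the eleventh gene called in both sexes, was also among the first set. Further list members were named after their values were seen. Alternatives used limma 3.58.1, DESeq2 1.42.0 and sva 3.50.0.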

Additional observations from a re-analysis of the deposited data

Results flagged for a closer look

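The interaction itself was tested, and 410 autosomal genes passed it. Among the genes that passed in both sexes in opposite directions were some with log2 interactions of 0.66 for Cd82, 0.48 for Fam234a, 0.59 for Prr18, 0.74 for S1pr5 and 0.57 for Mbp, and of -0.38 for Ndst1, -0.51 for Fhod3, -1.63 for Necab1, -1.64 for Sh2d4b and -0.76 for Tox3. Such genes numbered 11 by edgeR on all libraries and 0 without control male 22, where 0 genes passed in males (2103 at an unadjusted p under 0.05); DESeq2 gave 36 on all libraries.

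Single libraries stood apart from the rest of their group by Dixon's criterion in 4 of 108 checks on 27 leading genes, where chance gives about 1 in 20. Tmem98 was at 15.8 CPM in isolation female 3, above the rest. Tox was at 25 CPM in isolation male 14, Fhod3 at 46.1 CPM in isolation male 1 and Grin2d at 46.8 CPM in control female 29, each below the rest.

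Y-linked transcripts outside the autosomal comparison were present in the library labelled SIR_F_5 at male levels: Ddx3y at 41.6 CPM, Eif2s3y at 10.3 CPM, Uty at 7.79 CPM and Kdm5d at 15.4 CPM.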

How the results depend on the processing

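No paired analysis was possible because the replicate numbers of the 4 groups do not repeat and the labels give no litter. The 410 interaction calls became 718 with limma-voom, 216 on log2(TPM + 1), 861 with 2 surrogate variables and 693 at a threshold of 0.1; those with opposite signs became 694, 214, 824 and 671. Leaving out 1 library gave 276 to 516 calls and 271 to 506 with opposite signs. The 184 male calls became 73 without a filter on low counts, 593 with DESeq2, 597 with limma-voom, 87 on log2(TPM + 1), 514 without the 8 libraries whose numbers lie apart, 358 without the 2 shallowest libraries, 610 with 2 region-marker components (621 also without the library labelled SIR_F_5), 951 with surrogate variables, 0 with the length trend removed (also 0 without that library) and 645 at 0.1; single libraries left out gave 0 to 479. The 667 female calls became 1183 with limma-voom, 263 on log2(TPM + 1), 45 without the 8 libraries, 106 with region-marker components (136 also without the library labelled SIR_F_5), 424 with the length trend and that library removed and 1216 at 0.1; single libraries left out gave 349 to 803. The causes were not tested. No setting reversed a sign among the named genes' calls. Of 27 leading genes, 25 kept their call in all 47 alternative fits, and 1267 of 1269 gene and fit pairs were kept. The 2 lost, Fam234a among them, were on log2(TPM + 1). These 27 were picked for the smallest p or for calls in both sexes, so their retention is largely fixed by that choice. Of all 410 genes, 195 were called again on log2(TPM + 1), 223 with region-marker components and 410 with DESeq2. Among the other named calls, Lmx1b was lost in 25 of 46 fits, Hsd17b7 in 15 of 47, and Olig1 and Pclo in 9 each. The length trend combined with leaving out the library labelled SIR_F_5, and the repeats of list counts, were chosen after seeing the data.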
